A study of Mus musculus with 18 samples.

Results

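The 10 genes described here encode C-type lectin receptors of myeloid cells: *Mrc1*, *Clec10a*, *Mgl2*, *Clec7a*, *Clec4n*, *Clec4d*, *Clec4e*, *Clec5a*, *Clec4a2* and *Clec12a*. They were chosen by symbol from the 16314 gene symbols of the count table, and all 10 were among the 12021 genes with enough counts to be tested. The question asked of the family was whether the knockout effect of *Mrc1*, which was known to change sign between macrophage states, changes sign in the other lectin receptors too. The values of *Mrc1* itself are therefore a description and no independent evidence of such a pattern.

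Bulk RNA-seq was performed on bone marrow-derived macrophages (BMDMs) of *Prep*-/- mice and of their heterozygous *Prep*+/- littermates on a C57BL6/J background. *Prep* encodes prolyl endopeptidase, and the controls carried 1 disrupted copy of the gene, so they were not wild type. Marrow cells of all 6 groups grew for 7 days in 50 ng/ml M-CSF, the growth factor that drives macrophage differentiation. The cells were then left unstimulated (M0), given 50 ng/ml LPS for 24 h (M1), or given 20 ng/ml IL-4 with 20 ng/ml IL-13 for 24 h (M2), with 3 biological replicates of each genotype in each state. The age and sex of the mice are not given in the sources used here.

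C-type lectin receptors bind sugars or lipids on microbes, on dying cells and on the body's own glycoproteins through a shared fold. Some of them carry their ligand into the cell for degradation. Others start or restrain inflammatory signalling, either through a tyrosine motif in their own tail or through a partner adapter, and the kinase Syk and the Card9 complex relay the activating signals. IL-4 and IL-13 act through STAT6 and are known to induce *Mrc1*, *Clec10a*, *Mgl2* and *Clec7a* in mouse macrophages, whereas LPS is known to induce *Clec4e*.

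The library totals lay between 19068237 and 22598279 counts. *Prep* checked the labels: its normalized counts (counts scaled by the TMM factor to the mean library) in M0 were 638, 739 and 900.0 for *Prep*+/- against 42.2, 42.5 and 31.2 for *Prep*-/-, and it was called lower in *Prep*-/- in all 3 states. All 8 macrophage markers examined were detected in every library, with a summed level of 10025 to 48169 CPM (counts scaled to the library size). In M0 the sum was 18997 to 22403 CPM in *Prep*+/- against 30377 to 48169 in *Prep*-/-. In M1 it was 45750 to 47201 against 30995 to 37037, and in M2 10025 to 12200 against 13886 to 19562. Most of it was *Lyz2*. Not every other marker followed the sum. *Cd68* overlapped in M0 (1012.5 to 1101 against 847 to 1043 CPM) and was higher in *Prep*-/- M1 (855 to 1009 against 1096 to 1476). *Mertk* was also higher in *Prep*-/- M1 (27.9 to 45.7 against 73.3 to 102), and *Itgam* overlapped in M0 (374 to 531 against 368 to 596). In M2 *Adgre1* (879 to 1041 against 877 to 999) and *Fcgr1* (18.4 to 30.8 against 13.4 to 21.4) overlapped. *Csf1r* followed the sum in M0 (1157 to 1307 against 2029 to 4096) and in M2 (943 to 1127 against 1299 to 1978). Replicate 3 of *Prep*-/- M2 stood apart on the second principal component of all genes, at 50.7 against 19.3 and 14.6 in replicates 1 and 2, and calls of the 10 genes that were gained or lost without it are given with both values. Scatter between 2 libraries of a group was taken as chi-square per degree of freedom over all genes tested. By it replicate 3 of *Prep*-/- M0 stood apart too, at 107 and 114 from replicates 1 and 2, which were at 33.7 from each other. In *Prep*-/- M2 these values were 105, 105 and 11.4. The 7 dendritic cell markers summed to 0.200 to 2.83 CPM over the 18 libraries, and *Flt3*, *Siglech* and *Ccr7* were at 0 in 13, 11 and 10 of them. The 4 monocyte markers summed to 40.8 to 43.6 CPM in *Prep*+/- M0 and to 88.7 to 134 CPM in *Prep*-/- M0, nearly all of it *Ccr2* (40.4 to 43.2 against 87.1 to 130.3 CPM). The 10 neutrophil markers summed there to 85.7 to 112 and to 169 to 310.4 CPM. *Csf3r* (14.9 to 19.5 against 40.3 to 119 CPM) and *S100a8* (6.69 to 8.76 against 12.2 to 25.5 CPM) were both higher. *Mmp8* overlapped in M0 (39.6 to 50.3 against 37.4 to 71.1 CPM), and *Ly6g* was at 0 in 13 of the 18 libraries. In M1 both sums were lower in *Prep*-/- (monocyte 26.7 to 36.6 against 37.6 to 38.8 CPM, neutrophil 220.1 to 248 against 299.8 to 347 CPM), but their members were not all lower. *Ly6c2* (4.47 to 8.44 against 25.3 to 28.4 CPM) and *Mmp8* (18.9 to 36.9 against 123 to 152 CPM) were lower in those libraries, whereas *Ccr2* (16.5 to 27.2 against 8.15 to 10.7 CPM) and *Csf3r* (121 to 179 against 56.9 to 71.8 CPM) were higher. In M2 the monocyte markers summed to 13.3 to 15.3 CPM in *Prep*-/- against 16.1 to 22.6 CPM in *Prep*+/-, and the neutrophil markers to 157 to 351 against 83.3 to 110.2 CPM. Most of the latter difference was *Csf3r* (103 to 269 against 34.5 to 51.8 CPM), while *Mmp8* (23.9 to 36.4 against 23.9 to 27.9 CPM) and *S100a8* (5.13 to 7.90 against 5.48 to 5.83 CPM) overlapped. The part of these differences in the lectin receptor results was not tested.

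The 10 genes lie in 5 regions of the mouse genome (GRCm39, GENCODE vM39), and 3 of these regions hold close neighbours. *Clec4a2* (chromosome 6, 123083387 to 123120958), *Clec4n* (123206802 to 123223980), *Clec4d* (123239070 to 123252230) and *Clec4e* (123258748 to 123266829) form one cluster, with 6.5 kb between *Clec4d* and *Clec4e*. *Clec12a* (129319654 to 129342266) and *Clec7a* (129438554 to 129449742) lie farther along chromosome 6, and *Clec5a* (40551234 to 40562773) lies apart from both. *Mgl2* (70020954 to 70028376) and *Clec10a* (70047023 to 70061660) are neighbours on chromosome 11, 18.6 kb apart. *Mrc1* (14234151 to 14336926) is on chromosome 2, with the microRNA gene Mir511 inside it on the same strand.

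Promoter windows were taken from RefSeq (GRCm38.p6) and placed on GRCm39 by exact match; 8 of the 10 genes had an entry, and *Clec10a* and *Clec4n* did not. Sequence upstream of the annotated gene start is shown for *Mrc1* and *Clec7a*, which turned their knockout effect around between states, and for *Clec4d* and *Clec4e*, the closest neighbours. Each is written 5′ to 3′ in the direction of its gene, with capitals for GAGGAA, the core of the site of the macrophage factor PU.1, in either orientation (TTCCTC on the other strand), and for the palindrome bound by STAT6 (TTC and GAA with any 4 bases between).
Mrc1, chr2:14233975-14234150, plus strand: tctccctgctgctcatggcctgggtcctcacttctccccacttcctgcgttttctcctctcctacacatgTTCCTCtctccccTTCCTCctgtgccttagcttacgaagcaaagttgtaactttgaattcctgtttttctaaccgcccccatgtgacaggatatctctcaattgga
Clec7a, chr6:129449743-129449992, minus strand: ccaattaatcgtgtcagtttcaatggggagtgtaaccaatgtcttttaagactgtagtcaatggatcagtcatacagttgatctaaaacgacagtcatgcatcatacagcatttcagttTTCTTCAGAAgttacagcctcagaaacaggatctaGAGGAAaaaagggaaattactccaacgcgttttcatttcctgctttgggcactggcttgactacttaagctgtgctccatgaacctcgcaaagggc
Clec4d, chr6:123238816-123239065, plus strand: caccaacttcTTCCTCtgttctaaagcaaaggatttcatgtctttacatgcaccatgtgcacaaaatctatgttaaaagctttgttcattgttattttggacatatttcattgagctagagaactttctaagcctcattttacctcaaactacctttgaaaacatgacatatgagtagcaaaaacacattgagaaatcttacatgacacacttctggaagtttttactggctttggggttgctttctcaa
Clec4e, chr6:123266831-123267080, minus strand: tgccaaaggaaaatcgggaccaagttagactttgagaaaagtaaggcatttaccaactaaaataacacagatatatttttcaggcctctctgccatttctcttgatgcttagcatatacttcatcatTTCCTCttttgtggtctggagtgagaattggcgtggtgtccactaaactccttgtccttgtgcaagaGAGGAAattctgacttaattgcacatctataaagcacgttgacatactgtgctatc
GAGGAA, on either strand, was present within the 250 bases before the RefSeq start in 7 of the 8 genes (*Mrc1*, *Clec7a*, *Mgl2*, *Clec4d*, *Clec4e*, *Clec5a* and *Clec12a*) and in 23.1% of the 27025 promoters of that length. The STAT6 palindrome was present in 2 of the 8 (*Clec7a* and *Clec5a*) and in 5.86% of all promoters. The 2 motifs did not overlap where they are printed in capitals. These matches describe letters only, and the window of *Mrc1*, like that of *Clec4e*, holds none of the STAT6 palindrome. The windows of *Clec4a2* and *Clec12a* begin inside the annotated gene and are not printed.

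The level of each gene per length was compared as RPKM, which scales the counts to the library size and to the exon length in kb. In *Prep*+/- M0 BMDMs the order ran from *Clec4d* at a mean of 364 RPKM down to *Mgl2* at 0.504 RPKM, with *Clec12a* (71.3 RPKM) and *Mrc1* (66.9 RPKM) next below *Clec4d* and overlapping each other in their replicates. *Clec4a2* (46.9 RPKM) was the next, and *Clec4e* (20.9 RPKM), *Clec5a* (16.9 RPKM), *Clec7a* (15.4 RPKM) and *Clec4n* (13.1 RPKM) followed, each overlapping its neighbour. *Clec10a*, at 4.52 RPKM, stood above *Mgl2* alone.

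LPS and the M2 cytokines reordered the family. In *Prep*+/- M1 *Clec4d* reached 1121 RPKM and *Clec4e* 505 RPKM, far above *Clec4a2* (157 RPKM) and *Clec12a* (138 RPKM), which overlapped. In *Prep*+/- M2 *Mrc1* was at the top with 318 RPKM, followed by *Mgl2* with 259 RPKM, and *Clec4d* (178 RPKM) and *Clec7a* (164 RPKM) overlapped below them. *Clec4n* (4.47 RPKM) and *Clec4e* (3.61 RPKM) were the lowest in that state and overlapped.

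The order differed between genotypes in all 3 states. In M1 *Clec4d* and *Clec4e* stayed at the top, but *Clec5a* (24.4 RPKM) was above *Mrc1* (14.8 RPKM) in *Prep*+/-. In *Prep*-/- M1 *Mrc1* (22.6 RPKM) was above *Clec5a* (12.6 RPKM), with no overlap of the pair in either genotype. In *Prep*-/- M2 *Clec7a* led with 329 RPKM, and *Mrc1* (202 RPKM) and *Mgl2* (190 RPKM) overlapped below it. In *Prep*-/- M0 *Clec4d* was again at the top with 497 RPKM, but *Mrc1*, *Clec12a*, *Clec4a2*, *Clec4n*, *Clec7a* and *Clec10a* had means of 44.6 to 112 RPKM, each overlapping its neighbour, while *Mgl2* stayed lowest at 2.77 RPKM.

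**Figure D1:**
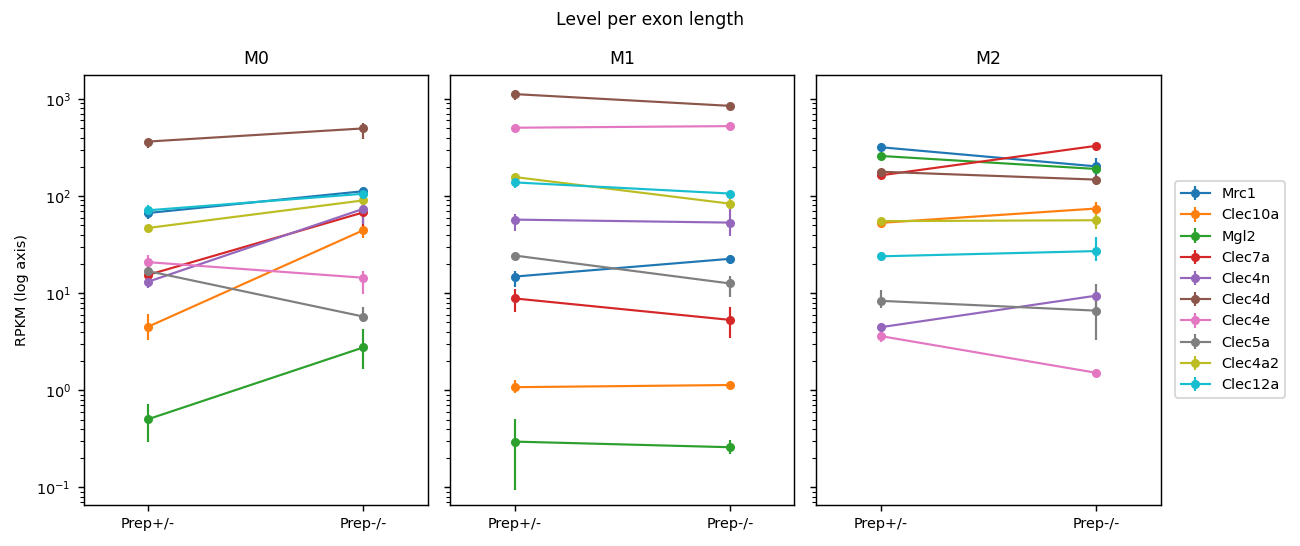
Mean level of each lectin receptor gene in RPKM (log axis) in *Prep*+/- and *Prep*-/- BMDMs, one panel per state; bars span the lowest to the highest of 3 libraries. *Mrc1* falls from 318 to 202 RPKM between genotypes in M2 while *Clec7a* rises from 164 to 329 RPKM.

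*Mrc1*, the mannose receptor that takes up mannose-rich glycoproteins, was higher in *Prep*-/- than in *Prep*+/- BMDMs in M0 and M1 and lower in M2. In M0 the 3 *Prep*+/- libraries held 11566, 9633 and 12062.5 normalized counts, and the 3 *Prep*-/- libraries 17016, 18582 and 20164. In M1 they were 2633, 1934 and 2798 against 4118, 3288 and 3816, and in M2 50826, 57730 and 49428 against 33912, 40849.6 and 25609. The genotypes did not overlap in any state, and the order of the genotypes in M2 was the opposite of that in M0 and M1. By edgeR, *Prep*-/- exceeded *Prep*+/- in M0 by 0.75 on the log2 scale (adjusted p = 0.00174) and in M1 by 0.61 (adjusted p = 0.0114), and in M2 the log2 fold change was -0.65 (adjusted p = 0.00939), each with a standard error of 0.17. As this is bulk RNA, fewer cells that express a gene and less RNA of it per cell cannot be told apart.

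A gene was called when its adjusted p was under 0.05 and its fold change over 1.5. The M1 and M2 calls of *Mrc1* were near the second of these limits. With DESeq2 in place of edgeR the M1 value was 0.58 (adjusted p = 0.00463), under the fold limit. The M1 call was also lost without replicate 2 of *Prep*+/- M1 (adjusted p = 0.0794) or replicate 1 of *Prep*-/- M1 (0.0648). Without replicate 3 of *Prep*-/- M2 the M2 value was -0.48 (adjusted p = 0.0320), also under the fold limit.

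In M0, 6 of the 10 genes were called higher in *Prep*-/- and 1 lower, where 15.4% of all genes tested were called higher and 17.2% lower. In M1, 1 of 10 was called higher and 3 lower (12.3% and 10.2% of all genes), and in M2, 2 were called higher and 2 lower (6.37% and 9.82%). The M1 count of 4 called genes dropped to 1 without replicate 2 of *Prep*+/- M1 or replicate 1 of *Prep*-/- M1, and to 2 without replicate 3 of *Prep*+/- M1 or replicate 2 of *Prep*-/- M1. Over the 10 genes, the median log2 fold changes in M0, M1 and M2 were 0.84, -0.27 and -0.12, against 0.02, 0.04 and 0.03 over all genes tested. The 3 states have separate controls.

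*Clec10a* and *Mgl2*, the paired galactose-type lectins that bind galactose and N-acetylgalactosamine, were both higher in *Prep*-/- M0, and the difference of *Clec10a* was the widest of the 10 in that state. Its normalized counts in M0 were 372, 257 and 202 for *Prep*+/- against 3088, 2251 and 2868 for *Prep*-/-, so that every knockout library was several times above every control library. The fold change was 9.89 (log2 3.31, standard error 0.23, adjusted p = 1.04e-07). *Mgl2* was scarce in M0, at 34.7, 14.2 and 24.6 in *Prep*+/- and 209, 114 and 80.1 in *Prep*-/-, and rose 5.52-fold (log2 2.46, standard error 0.36, adjusted p = 4.71e-05).

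In M1 neither galactose-type lectin differed between genotypes beyond its spread. *Clec10a* counts were 57.0, 63.1 and 78.2 against 69.3, 70.4 and 68.9, with a 95% interval of the log2 fold change from -0.51 to 0.66. *Mgl2* was at 4.56, 14.3 and 24.4 against 12.1, 14.9 and 10.8, and at this low level its interval, -1.38 to 1.06, is wide.

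In M2 the pair moved in opposite directions without a call. *Mgl2* was at 12346, 11978 and 13354 in *Prep*+/- and at 8631, 10554 and 8503 in *Prep*-/-. The 3 knockout libraries were all below the 3 controls, but the log2 fold change of -0.44 (standard error 0.26, adjusted p = 0.238) did not pass, and its 95% interval reached 0.11. *Clec10a* was at 3176, 3040.3 and 3539 against 5312, 5330.3 and 3051, where only replicate 3 of *Prep*-/- M2 fell among the controls. Its log2 fold change was 0.49 (adjusted p = 0.0950) with that library and 0.72 (adjusted p = 0.00579) without it. The transcripts of these neighbours share 837 bases at 93.7% identity, so reads could be split between them, and both are uncertain to that extent; the counting rule for such reads is not given in the sources used here.

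*Clec7a*, which encodes Dectin-1, the receptor for fungal beta-glucan that signals through its own tail and Syk, was higher in *Prep*-/- in M0 and M2 and lower in M1. In M0 the controls were at 907, 793 and 886 normalized counts and the knockout libraries at 4828, 3774 and 2776, a log2 fold change of 2.14 (standard error 0.24, adjusted p = 4.67e-06). In M2 they were 8690.5, 8969 and 9742 against 19072, 16206 and 19819.9, a log2 fold change of 1.01 (standard error 0.23, adjusted p = 0.00430). The groups were separate in both states, with the knockout libraries on top.

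In M1 *Clec7a* was low in both genotypes, at 354, 509 and 616 in *Prep*+/- and 295, 192 and 403 in *Prep*-/-. The groups overlapped, since 403 lies above 354, and the log2 fold change was -0.73 (standard error 0.24, adjusted p = 0.0272). This call was lost when any 1 of 4 M1 libraries was left out: replicates 2 and 3 of *Prep*+/- (adjusted p = 0.0705 and 0.121) and replicates 1 and 2 of *Prep*-/- (0.0731 and 0.105).

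*Clec4n*, *Clec4d* and *Clec4e* encode Dectin-2, Dectin-3 and Mincle, which signal through the adapter Fcer1g and recognise fungal mannans or mycobacterial glycolipids. *Clec4n* was higher in *Prep*-/- in M0, with 450.5, 393 and 340.1 in *Prep*+/- and 3273, 1839.8 and 1554 in *Prep*-/- (log2 fold change 2.49, standard error 0.31, adjusted p = 1.09e-05). It was higher in M2 as well, with 105, 149 and 149 against 322, 205 and 324 (log2 fold change 1.08, standard error 0.32, adjusted p = 0.0210). The M2 call was lost without replicate 1 of *Prep*+/- (adjusted p = 0.0876) or replicate 1 of *Prep*-/- (0.0765). In M1 it was at 1326, 1948 and 1884 against 2368, 1161 and 1275, and the libraries overlapped (95% interval -0.71 to 0.51).

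*Clec4e* was lower in *Prep*-/- M2, the state in which it was least expressed. The *Prep*+/- libraries had 356, 330.2 and 452 normalized counts there and the *Prep*-/- libraries 176, 154 and 147, with no overlap (log2 fold change -1.25, standard error 0.19, adjusted p = 0.000231). In M0 it was at 2043, 2601 and 1933 against 1748, 1766 and 1032, again with all knockout libraries below, and passed on p alone (log2 fold change -0.53, adjusted p = 0.0223). This became a call (-0.63 to -0.66) without replicate 3 of *Prep*+/- M0 or replicate 1 or 2 of *Prep*-/- M0. In M1 it was at 55169, 52041 and 52002 against 48814, 57815 and 58775, with a log2 fold change of 0.06 and a 95% interval of -0.32 to 0.43.

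*Clec4d* was called in no state with all libraries in the fit, while its values passed on p alone in M0 and M1 in opposite directions. In M0 *Prep*+/- had 13127, 13256 and 10697 against 18296, 13105 and 19255 for *Prep*-/-, where replicate 2 lay among the controls (log2 fold change 0.45, adjusted p = 0.0187). Without that library the log2 fold change was 0.61 (adjusted p = 0.00247), a call. In M1 they were 33029, 41989 and 39227 against 29314, 26584 and 30557, all knockout libraries below (-0.40, adjusted p = 0.0422). In M2 they were 6168, 5643 and 6321 against 4997, 4425 and 5623, with a log2 fold change of -0.27 (95% interval -0.58 to 0.04). With all libraries in the fit, *Clec4n* was thus called in M0 and M2, *Clec4e* in M2 and *Clec4d* in no state. *Clec4d* and *Clec4e* are 6.5 kb apart, and whether the knockout effects of these clustered genes differ from each other was not tested.

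*Clec5a*, which signals through the adapter Tyrobp (DAP12), was lower in *Prep*-/- in M0 and M1. In M0 it had 1306, 1779 and 1683 normalized counts in *Prep*+/- against 475, 677 and 471 in *Prep*-/- (log2 fold change -1.55, standard error 0.36, adjusted p = 0.00220). In M1 they were 2206, 2382 and 2312 against 858, 1290.2 and 1412 (log2 fold change -0.95, standard error 0.36, adjusted p = 0.0457). No library overlapped in either state, yet the M1 call was lost on leaving out any 1 of the 6 M1 libraries (adjusted p from 0.0513 to 0.168) and any 1 of 4 libraries of the other states, namely replicates 2 and 3 of *Prep*+/- M0, replicate 1 of *Prep*-/- M0 and replicate 2 of *Prep*+/- M2 (0.0503 to 0.0535).

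In M2 *Clec5a* was at 669, 681 and 1007 in *Prep*+/- and at 309.8, 384 and 1175 in *Prep*-/-. The third knockout library was the highest of the 6 and the other two were the lowest. The log2 fold change was -0.33 (adjusted p = 0.539) with that library and -1.17 (adjusted p = 0.00139) without it.

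*Clec4a2* and *Clec12a* encode DCIR and a receptor for uric acid crystals, both of which restrain signalling through an inhibitory tyrosine motif. In M0 *Clec4a2* was at 3133, 2986 and 2608 for *Prep*+/- and at 7065, 4353 and 5360 for *Prep*-/-, higher in every knockout library (log2 fold change 0.94, standard error 0.20, adjusted p = 0.000920). In M1 it was at 8118, 10522 and 10546 against 5174, 4521 and 5823, lower in every knockout library (-0.91, standard error 0.20, adjusted p = 0.00241). In M2 it was at 3549.6, 3213 and 3489 against 2828, 2914 and 4735, with a log2 fold change of 0.03 and a 95% interval of -0.38 to 0.44. Its transcripts share stretches of 439 bases at 96.1% identity with *Clec4b1* and 463 bases at 91.4% with *Clec4a4*, so reads could be split here too. As counted, both relatives were scarcer, with group means up to 327 and 41.6 normalized counts against 2909 or more for *Clec4a2*.

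*Clec12a* was called in no state with all libraries in the fit. In M0 it was at 9985, 9078 and 7627 for *Prep*+/- and at 13907, 11343 and 14241 for *Prep*-/-, with no overlap, and passed on p but not on fold (log2 fold change 0.57, adjusted p = 0.0192), with a call at 0.66 without replicate 1 of *Prep*+/- M0 or replicate 2 of *Prep*-/- M0. In M1 it was at 15087, 18902 and 17709 against 13036, 12349 and 14304, all knockout libraries below (-0.38, adjusted p = 0.117). In M2 it was at 2953, 2702 and 3309.9 against 2645, 2762 and 4739, and the libraries overlapped (0.18, 95% interval -0.22 to 0.57).

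**Figure D2:**
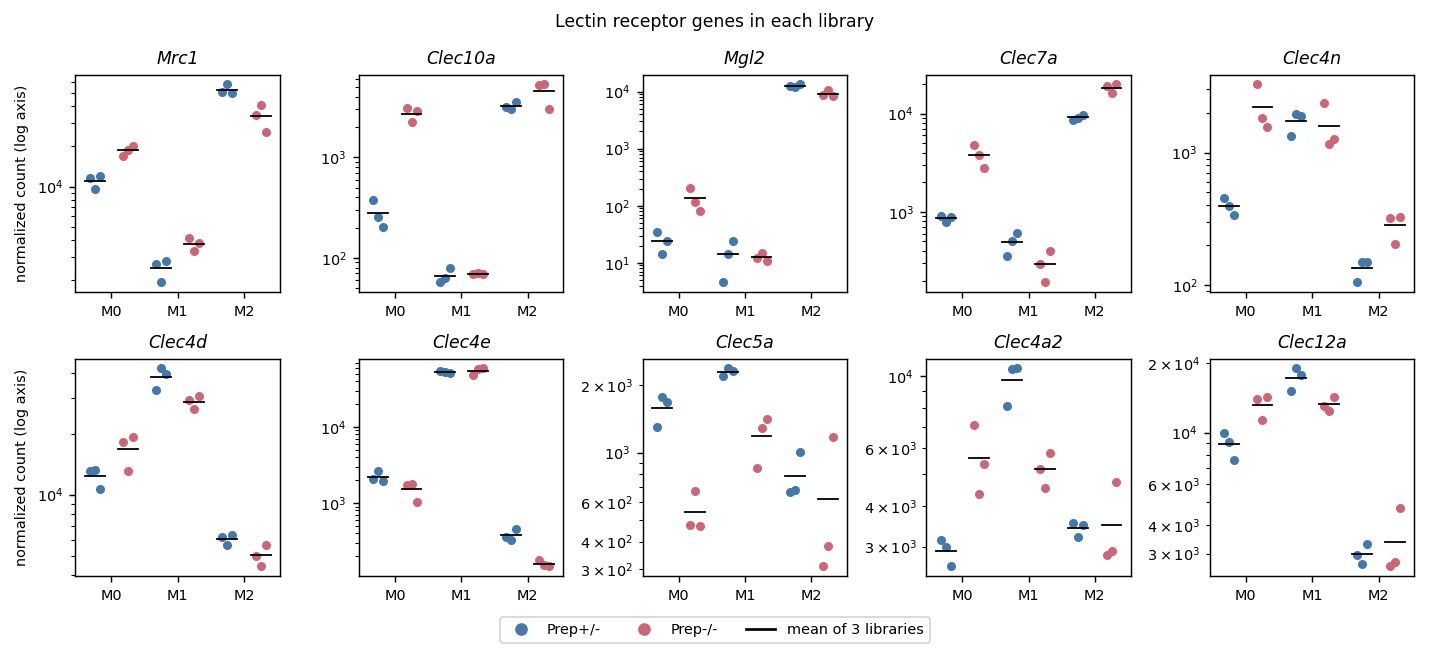
Normalized count of each lectin receptor gene in each of the 18 libraries (log axis, one panel per gene), by state and genotype; each point is 1 library and each line the mean of 3. For *Mrc1* the *Prep*-/- points lie above the *Prep*+/- points in M0 and M1 and below them in M2, and in the *Clec5a*, *Clec4a2* and *Clec12a* panels 1 *Prep*-/- M2 library lies above the other two.

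The change of sign was tested as an interaction, the knockout effect in one state minus that in another. A gene was counted as reversing when it was called in opposite directions in 2 states and the difference between those states had an adjusted p under 0.05. By this rule 3 of the 10 genes reversed (*Mrc1*, *Clec7a* and *Clec4a2*), against 227 of 12021 genes tested, or 1.89%. The change of sign of *Mrc1* was known beforehand, so its place in this count is no independent evidence. Only *Clec7a* and *Clec4a2* bear on the question asked of the other lectin receptors. The 10 genes and the tests were chosen with earlier results of these data known. The count is therefore a description for these genes too.

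The 3 genes reversed between different states. *Mrc1* reversed between M0 and M2 (difference -1.40, standard error 0.24, adjusted p = 0.00266) and between M1 and M2 (-1.26, standard error 0.24, adjusted p = 0.00315). *Clec7a* reversed between M0 and M1 (-2.87, standard error 0.34, adjusted p = 4.24e-05) and between M1 and M2 (1.74, standard error 0.33, adjusted p = 0.00335), so its odd state was M1 and not M2. *Clec4a2* reversed between M0 and M1 (-1.85, standard error 0.28, adjusted p = 0.000260). The shares of all genes were 1.38% between M0 and M1, 0.216% between M0 and M2 and 0.79% between M1 and M2.

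The direction seen in *Mrc1*, higher in M0 and lower in M2, was met by *Mrc1* alone of the 10, and by 13 of all genes tested (0.108%). *Mgl2* had the same signs and a difference of -2.91 (standard error 0.45, adjusted p = 0.00132), but its M2 value was not called. *Clec4d* had those signs too, at 0.45 and -0.27, and neither was called. With no minimum fold change *Clec4d* joined the reversing genes through M0 and M1, which gave 4 of 10 members and 521 of all genes.

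Reversal rested on single libraries for *Mrc1* and *Clec7a*. Without replicate 3 of *Prep*-/- M2, *Mrc1* no longer met the rule, and *Clec7a* no longer met it without any 1 of the 4 M1 libraries named above. The reversal of *Mrc1* between M1 and M2 also needs its M1 call. That call was lost with DESeq2 or its size factors (0.58 with each), and without replicate 2 of *Prep*+/- M1 or replicate 1 of *Prep*-/- M1. In those alternatives *Mrc1* met the rule between M0 and M2 only. *Clec4a2* met it in all 26 alternative analyses.

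**Figure D3:**
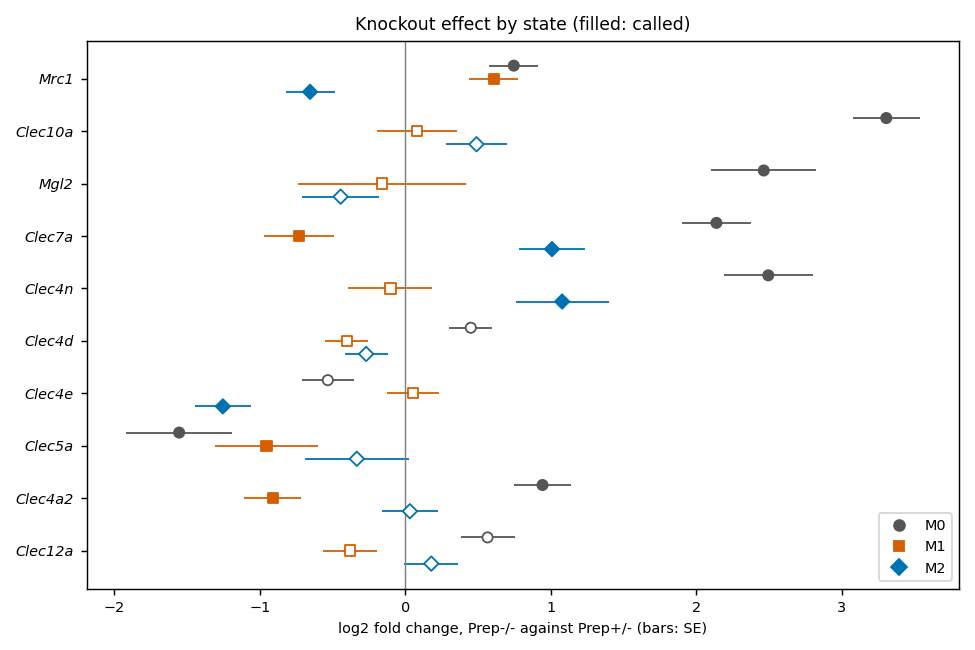
Log2 fold change of *Prep*-/- against *Prep*+/- for each gene in M0 (circles), M1 (squares) and M2 (diamonds), with standard errors as bars; filled symbols were called. *Mrc1* has filled symbols on both sides of 0 (0.75 and 0.61 against -0.65), as do *Clec7a* (2.14 and 1.01 against -0.73) and *Clec4a2* (0.94 against -0.91).

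The knockout effect, taken with its sign, was lower in M1 than in M0 for much of the family. The M1 minus M0 difference was called lower in 7 of the 10 genes and higher in 0, where 10.9% and 13.7% of all genes were called lower and higher. It was -3.23 for *Clec10a* (adjusted p = 2.53e-05), -2.62 for *Mgl2* (0.0122), -2.60 for *Clec4n* (0.000446), -0.95 for *Clec12a* (0.0157) and -0.85 for *Clec4d* (0.00782), besides *Clec7a* and *Clec4a2*. At an unadjusted p under 0.05, 1 gene was higher by edgeR, and DESeq2 called 0 higher.

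The M2 minus M0 difference was also called lower in 7 genes and higher in 0 (4.48% and 5.16% of all genes), with 1 higher at an unadjusted p under 0.05 and 0 called higher by DESeq2. Besides *Mrc1* and *Mgl2*, it was -2.82 for *Clec10a* (adjusted p = 6.66e-05) and -1.13 for *Clec7a* (0.0380). It was -1.42 for *Clec4n* (adjusted p = 0.0495), -0.91 for *Clec4a2* (0.0474) and -0.72 for *Clec4d* (0.0398). These 4 values with an adjusted p from 0.0380 to 0.0495 were close to the threshold. Of 25 alternative analyses, the call was lost in 16 for *Clec4n*, 15 for *Clec4a2*, 14 for *Clec4d* and 7 for *Clec7a*. The call of *Clec7a* was lost without any 1 of 7 libraries (adjusted p from 0.0589 to 0.0991), namely replicates 2 and 3 of *Prep*+/- M0, all 3 of *Prep*+/- M2, replicate 1 of *Prep*-/- M0 and replicate 2 of *Prep*-/- M2. *Mrc1*, *Mgl2*, *Clec10a* and *Clec7a* were called when only the libraries compared were fitted, and *Clec4n*, *Clec4a2* and *Clec4d* were not (0.0531, 0.0831 and 0.0749). Without replicate 3 of *Prep*-/- M2, which stood apart on the second principal component, *Clec4n* was no longer called (-1.50, adjusted p = 0.0621), and *Clec12a* went from -0.39 (adjusted p = 0.377) to -0.70 (0.0397), a call. Without replicate 3 of *Prep*-/- M0, *Clec4a2* (-0.93, adjusted p = 0.0503) and *Clec4d* (-0.60, 0.0715) were no longer called. *Clec5a* (1.22, adjusted p = 0.140) was called higher without replicate 1 of *Prep*-/- M2 (1.53, 0.0420), and *Clec4e* lower without replicate 3 of *Prep*-/- M0 (-0.92, 0.0113). Leaving out 1 library gave between 3 and 7 called genes: 3 without replicate 2 or 3 of *Prep*+/- M0, replicate 1 of *Prep*-/- M0, any *Prep*+/- M2 replicate or replicate 2 of *Prep*-/- M2, and 4 without replicate 3 of *Prep*+/- M1 or of *Prep*-/- M1.

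The M2 minus M1 difference was called higher in *Clec7a* and *Clec4a2* (0.94, adjusted p = 0.0322) and lower in *Mrc1* and *Clec4e* (-1.31, adjusted p = 0.00442), where 5.9% and 7.94% of all genes were called higher and lower. *Clec4n* (1.18, adjusted p = 0.0781) was called higher as well with DESeq2 (0.0287) and without replicate 1 of *Prep*-/- M0 (0.0424), replicate 1 of *Prep*-/- M1 (0.0192) or replicate 2 of *Prep*-/- M2 (0.0426). Comparisons of M1 and of M2 with M0 share the M0 libraries, so the 7 genes that were lower in each are not independent of each other.

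The response to the stimuli was next compared between states within each genotype. LPS raised 5 of the 10 genes in *Prep*+/- (*Clec4e*, *Clec4n*, *Clec4a2*, *Clec4d* and *Clec12a*) and lowered 3 (*Mrc1*, *Clec10a* and *Clec7a*), where 16.7% and 20.9% of all genes rose and fell. In *Prep*-/- it raised 3 (*Clec4e*, *Clec5a* and *Clec4d*) and lowered 4 (*Clec10a*, *Clec7a*, *Mgl2* and *Mrc1*), against 20.9% and 21% of all genes.

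*Clec4e* had the widest rise with LPS in both genotypes, by 4.60 on the log2 scale in *Prep*+/- (standard error 0.21) and 5.18 in *Prep*-/- (standard error 0.21). The inhibitory *Clec4a2* rose by 1.74 in *Prep*+/- (adjusted p = 1.74e-06) and had a log2 fold change of -0.11 in *Prep*-/- (95% interval -0.52 to 0.30). *Clec4n* rose by 2.12 in *Prep*+/- (adjusted p = 1.90e-05), against -0.47 in *Prep*-/- (adjusted p = 0.173), and *Clec12a* by 0.95 against 0.01. The *Prep*-/- value of *Clec4n* depended on single libraries: it was -0.91 (adjusted p = 0.0134), a call, without replicate 1 of *Prep*-/- M1 and -0.0835 (adjusted p = 0.816) without replicate 1 of *Prep*-/- M0.

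The difference of the LPS response between genotypes is the same contrast as the M1 minus M0 difference above, which carries its test. The log2 fold change with LPS was -2.07 in *Prep*+/- and -5.30 in *Prep*-/- for *Clec10a*, and -0.81 and -3.68 for *Clec7a*. That of *Mrc1*, in contrast, was -2.18 and -2.31, and the difference between the genotypes, -0.14, had a 95% interval of -0.64 to 0.37.

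IL-4 with IL-13 raised the same 4 genes in both genotypes (*Mrc1*, *Clec10a*, *Mgl2* and *Clec7a*), where 6.09% of all genes rose in *Prep*+/- and 14.7% in *Prep*-/-. It lowered 4 in *Prep*+/- (*Clec4e*, *Clec12a*, *Clec4n* and *Clec4d*) and the same 4 with *Clec4a2* in *Prep*-/-, against 6.77% and 15.5% of all genes. *Clec5a* in *Prep*+/- (-1.02, adjusted p = 0.0581) was not called in that fit, but it was with DESeq2 (adjusted p = 0.0206), with only the libraries compared (0.00138), with either replicate block (0.0249 and 1.13e-06) and without replicate 2 or 3 of *Prep*-/- M0 (0.0499 and 0.0472) or any *Prep*-/- M2 replicate (0.0241, 0.0371 and 0.00100 without replicates 1, 2 and 3). The *Prep*-/- M2 and M0 libraries of *Clec4a2* overlapped, and its *Prep*-/- value of -0.68 (adjusted p = 0.00977) was not called with only the libraries compared (0.0918), nor with the replicate block in them (0.0986). *Mgl2* rose from a mean of 24.5 to 12559 normalized counts in *Prep*+/-, a log2 fold change of 9.01 (standard error 0.40), and from 134 to 9229 in *Prep*-/-, a log2 fold change of 6.10 (standard error 0.34).

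The rise of all 4 was smaller on the log2 scale in *Prep*-/-. It was 2.25 against 0.85 for *Mrc1*, 3.55 against 0.74 for *Clec10a* and 3.41 against 2.28 for *Clec7a*. The tests are the M2 minus M0 differences given above. A smaller log2 rise was not a lower M2 level for each gene. The *Prep*-/- mean of *Clec7a* was above that of *Prep*+/- in M0 (3793 against 862 normalized counts) and in M2 (18366 against 9134). For *Clec10a* the means were 2736 against 277 in M0 and 4565 against 3252 in M2, the latter not called. In M2 *Mrc1* was lower in *Prep*-/-, and *Mgl2* was lower without a call. For *Clec10a* the *Prep*-/- M2 and M0 libraries overlapped, as replicate 3 in M2 (3051) was below replicate 1 in M0 (3088), and the call was lost when only the libraries compared were fitted (adjusted p = 0.0602; 0.0968 with the replicate block in them), or when replicate 2 of *Prep*-/- M0 (0.0508) or replicate 1 of *Prep*-/- M2 (0.0525) was left out.

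**Figure D4:**
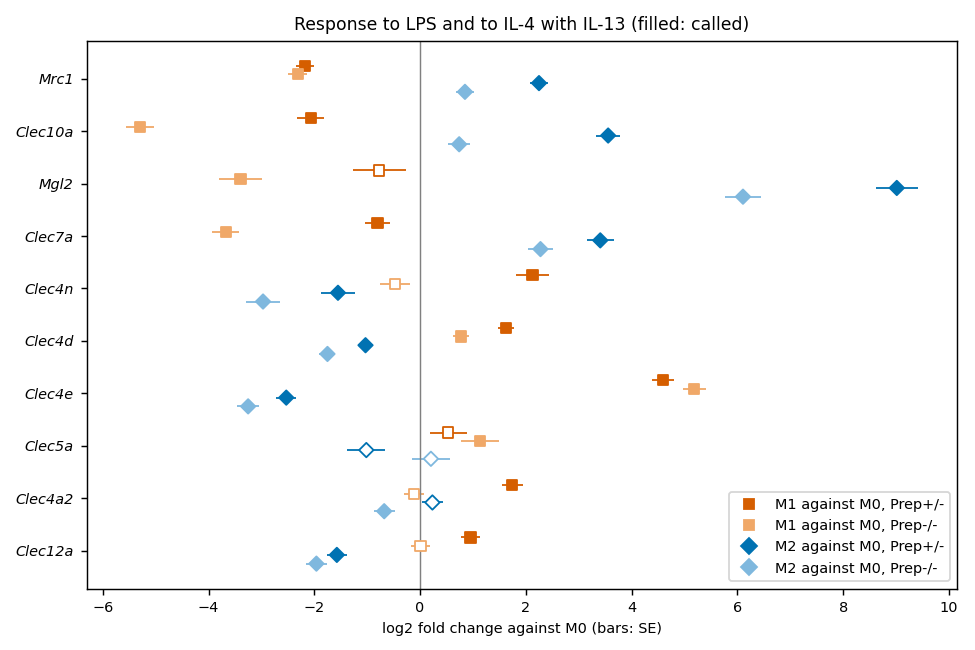
Log2 fold change against M0 for each gene in M1 (squares) and M2 (diamonds), with *Prep*+/- in dark and *Prep*-/- in light colours and standard errors as bars; filled symbols were called. *Mrc1*, *Clec10a*, *Mgl2* and *Clec7a* lie to the right of 0 in M2 for both genotypes, and *Clec4n*, *Clec4a2* and *Clec12a* have a filled M1 symbol for *Prep*+/- (2.12, 1.74 and 0.95) and an open one for *Prep*-/-.

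The remaining C-type lectin receptors were examined as a list of 37 symbols, of which 33 had a row and 20 were tested. In M0, 8 were called higher in *Prep*-/- and 2 lower, in M1 5 and 2, and in M2 6 and 1, to be read against the shares of all genes given above. Their median log2 fold changes were 0.69, 0.49 and 0.43. *Clec4a3*, a relative of *Clec4a2*, was higher in all 3 states, by 2.49, 0.97 and 1.16 on the log2 scale, and *Clec4a1* in M0 (2.61) and M2 (1.14). *Clec2i* was higher in all 3 as well, by 1.23, 2.73 and 1.01, though its M2 call was lost without replicate 3 of *Prep*+/- M2 (adjusted p = 0.0675) or replicate 1 or 2 of *Prep*-/- M2 (0.0588 and 0.0705). *Cd72* in M2 went from -0.15 (adjusted p = 0.812) to -0.97 (0.0155), a call, without replicate 3 of *Prep*-/- M2.

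The other genes called in this list were not called in all 3 states, and some were called in opposite directions. *Clec1a* (2.18), *Clec4a4* (3.51), *Clec2d* (2.36), *Cd302* (0.81) and *Klrk1* were higher in M0, and *Cd207* (-4.31) and *Pla2r1* (-1.80) lower. In M0 *Klrk1* had 0, 0 and 0.848 normalized counts for *Prep*+/- against 5.02, 6.20 and 2.93 for *Prep*-/-, too few for a fold change, and its call was lost without any *Prep*+/- M0 replicate, replicate 1 or 2 of *Prep*-/- M0 or replicate 3 of *Prep*-/- M1 (adjusted p from 0.0507 to 0.124). *Cd302* was lower in M1 (-0.75) and its M1 minus M0 difference was -1.56 (adjusted p = 4.55e-05), so it met the reversal rule. *Olr1*, a scarce transcript with at most 51.8 normalized counts, was lower in M1 (-3.10) and higher in M2 (1.52) and met the rule too, with a difference of 4.63 (adjusted p = 0.000982). Its M2 call was lost without replicate 2 or 3 of *Prep*+/- M2 or replicate 1 or 2 of *Prep*-/- M2 (adjusted p from 0.0530 to 0.116). In M1 *Clec4a4* (1.45), *Cd69* (2.39) and *Ly75* (1.48) were higher, although *Clec4a4* had at most 59.4 normalized counts there and its M1 call (adjusted p = 0.0473) was lost without any 1 of 11 libraries (0.0501 to 0.275), with 0.89 as the lowest value, without replicate 1 of *Prep*-/- M1. In M2 *Clec2d* (1.52) and *Ly75* (1.57) were higher and *Cd207* (-2.89) lower.

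The signalling partners of the receptors, a list of 21 adapters, kinases and phosphatases that were all tested, had calls in one direction. In M0, 7 were called higher in *Prep*-/- and 0 lower, where 15.4% and 17.2% of all genes were: *Tyrobp* (0.90), *Hcst* (1.11), *Syk* (0.82), *Bcl10* (0.84), *Prkcd* (0.60), *Map3k14* (0.78) and *Ptprj* (0.80). At an unadjusted p under 0.05, 12 were higher and 0 lower by edgeR, and DESeq2 called 7 and 0. The M0 call of *Prkcd* was near the fold limit and fell under it without replicate 2 or 3 of *Prep*+/- M0, replicate 2 of *Prep*+/- M2 or replicate 1 or 2 of *Prep*-/- M0 (0.47 to 0.58). In M2, 4 were called higher and 0 lower (6.37% and 9.82% of all genes): *Tyrobp* (0.64), *Syk* (0.83), *Malt1* (1.09) and *Prkcd* (0.79). At an unadjusted p under 0.05, 9 were higher and 0 lower there, and DESeq2 called 5 and 0. *Malt1* rested on 1 library: its M2 normalized counts were 326, 385 and 617 for *Prep*+/- and 577, 511 and 1737 for *Prep*-/-, the groups overlapped, and without replicate 3 of *Prep*-/- M2 the value was 0.31 (adjusted p = 0.339). Without that library *Map3k14* went from 0.52 (adjusted p = 0.0441) to 0.64 (0.0135), a call, so that 4 were again called. *Malt1* was also not called without replicate 2 or 3 of *Prep*+/- M0 or replicate 1 or 2 of *Prep*+/- M2 (0.0505 to 0.137), *Syk* without replicate 1 of *Prep*+/- M2 (0.0508) and *Tyrobp* without replicate 1 of *Prep*-/- M2 (0.58, under the fold limit). In M1, where 12.3% and 10.2% of all genes were called higher and lower, edgeR and DESeq2 called 0 of the 21 in either direction, with 4 higher and 1 lower at an unadjusted p under 0.05, and *Malt1* (0.80, adjusted p = 0.0887) was called without replicate 3 of *Prep*-/- M2 (0.79, 0.00713).

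*Tyrobp*, the adapter that *Clec5a* depends on, had M0 values of 16041, 15848 and 13764 for *Prep*+/- and 32139, 25244 and 27912 for *Prep*-/-, while *Clec5a* itself was lower in those libraries. The M1 minus M0 difference of *Tyrobp* was -1.10 (standard error 0.17, adjusted p = 0.000333). The M0 libraries of *Syk* overlapped, at 2656, 2978 and 3108 against 6126, 6357 and 2933. Those of *Ptprj* overlapped too, at 2393, 2607 and 2908 against 5593, 5286 and 2904. With the replicate block in the libraries compared, the M0 calls of *Syk*, *Ptprj* and *Prkcd* were lost (adjusted p = 0.0881, 0.0722 and 0.0595).

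Across the 18 libraries the genes whose log2 CPM followed that of *Mrc1* most closely were *Gsto1* (Pearson r = 0.974), *Irf4* (0.972), *Itgb3* (0.969), *Cebpa* (0.968) and *Baiap2* (0.966), out of 9600 genes compared. None of these 5 was called lower in *Prep*-/- M2, where 9.82% of all genes tested were, so few genes cannot be told apart from that share. Their values ran from -0.25 for *Gsto1* (adjusted p = 0.189) to 0.41 for *Cebpa* (adjusted p = 0.0239, under the fold limit). Of the lectin receptors, *Clec10a* (0.943), *Clec7a* (0.908) and *Mgl2* (0.889) followed *Mrc1*, and the other 6 ran the other way, from -0.70 for *Clec4a2* to -0.96 for *Clec4e*. These coefficients describe libraries that fall into 3 states, and the differences between states are part of them.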

How the data were processed

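Bulk RNA-seq libraries of M0, M1 and M2 BMDMs (6 groups, 3 biological replicates each) were made with a stranded mRNA kit. The submitters' processing notes name Trimmomatic 0.36, HISAT2 2.2.1.0 and GRCm39. The authors deposited raw counts per gene symbol for 18 libraries; the study's methods name StringTie for assembling the aligned reads into transcripts before the count tables, and the strand setting, the annotation release and the treatment of reads shared by several genes are not given in the sources used here. Each column was matched to its sample by label.

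Counts were filtered with filterByExpr (12021 of 16314 genes), scaled by TMM and fitted in 1 edgeR 4.0.16 quasi-likelihood model with a coefficient per group (R 4.3.3, limma 3.58.1), with Benjamini-Hochberg adjustment over all genes tested. Genotype and state comparisons were called when the fold change exceeded 1.5 and the adjusted p was under 0.05, and differences between states at an adjusted p under 0.05. DESeq2 1.42.0, other scalings and filters, a replicate block and the omission of each library were alternatives. The fits were tested on simulated data. RPKM used the union of GENCODE exons, and transcripts were compared with blastn 2.17.0. Levels over exon length assume that the authors counted over a similar annotation.

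The 10 genes, the lists and the tests were chosen with earlier results of these data known. Named besides the 10 are *Prep*, every list gene called in a genotype comparison, and the 5 genes most correlated with *Mrc1* among those with a mean of at least 5 CPM. Same-numbered replicates deviated together (every correlation over 0.1) only for genotype in M2 (0.249 to 0.462) and for M1 against M0 in *Prep*-/- (0.169 to 0.259); no label says what a number marks. Of the remaining marker lists, granulocyte precursors summed to 0.215 to 2.28 CPM, B cells to 0 to 0.168, mast cells and basophils to 0 to 0.0801, stromal cells to 0.0839 to 16.7, and T cells to 0.170 to 29.6 CPM. The T cell sum was *Cd4*, highest in *Prep*-/- M0 (7.84 to 29.6), as *Cd3d* was at 0 in 16 of 18 libraries, those included.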

Additional observations from a re-analysis of the deposited data

Results flagged for a closer look

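The results below were singled out because the knockout effect of a lectin receptor gene (*Prep*-/- minus *Prep*+/-, log2) differed between 2 states by edgeR's interaction test at an adjusted p under 0.05. In M1 minus M0 they were *Clec7a* (-2.87), *Clec10a* (-3.23), *Mgl2* (-2.62), *Clec4a2* (-1.85), *Clec4d* (-0.85), *Clec4n* (-2.60) and *Clec12a* (-0.95). In M2 minus M0 they were *Mrc1* (-1.40), *Clec7a* (-1.13), *Clec10a* (-2.82), *Mgl2* (-2.91), *Clec4a2* (-0.91), *Clec4d* (-0.72) and *Clec4n* (-1.42). In M2 minus M1 they were *Mrc1* (-1.26), *Clec7a* (1.74), *Clec4a2* (0.94) and *Clec4e* (-1.31). The first 2 families share the M0 libraries and the last shares M1 with the first and M2 with the second, so these values are not independent of each other.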

How the results depend on the processing

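Over the 100 values of the 10 genes (10 comparisons each) and their alternatives, 2421 of 2570 kept both direction and side of the threshold, 90 lost a call, 29 gained one and 30 changed sign. With the replicate block in the libraries compared, the M2 minus M0 count fell from 7 to 4 genes, as it did when only those libraries were fitted. Outside the 2 comparisons with paired numbers, the lowest correlation of a same-numbered pair was -0.349, and between 0 of 12 and 4 of 6 libraries correlated best with their own number. In the 2 comparisons in which the numbers pair the libraries, the block changed no call of a lectin receptor and no count by over 1.5 times. It turned the M2 knockout effect of *Clec4a2* to -0.0101 and the M1 against M0 value of *Clec12a* in *Prep*-/- to -0.0275. That of *Clec12a* was also -0.0128 with DESeq2 or its size factors and -0.0328 with only the libraries compared. In M2 against M0 in *Prep*-/-, where the numbers do not pair the libraries, the block turned the value of *Clec5a* to -0.0560. None of these uncalled values was called after the change. The block lost the M2 against M0 calls of *Clec10a* and *Clec4a2* in *Prep*-/- (adjusted p = 0.0968 and 0.0986). Leaving out each library in turn gave 1 to 4 called genes for the M1 knockout effect and 3 to 7 for M2 minus M0. The uncalled values that changed sign with a library left out ranged, for the M1 knockout effect, from -0.0351 to 0.20 (*Clec10a*), -0.62 to 0.42 (*Mgl2*), -0.0015 to 0.12 (*Clec4e*) and -0.51 to 0.0721 (*Clec4n*). For the M2 knockout effect they ranged from -0.24 to 0.15 (*Clec4a2*) and -0.13 to 0.32 (*Clec12a*), both lowest without replicate 3 of *Prep*-/- M2. For M2 minus M1 they ranged from -0.86 to 0.17 (*Mgl2*) and -0.20 to 0.95 (*Clec5a*). Within *Prep*-/-, M1 against M0 ranged from -0.31 to 0.0912 (*Clec4a2*) and -0.13 to 0.0487 (*Clec12a*), and M2 against M0 of *Clec5a* from -0.66 to 0.49, where -0.66 (adjusted p = 0.0366) was reached without replicate 3 of *Prep*-/- M2 and was a call. Calls also changed with 1 library left out for the M1 minus M0 difference of *Mgl2* (lost without replicate 3 of *Prep*+/- M1, adjusted p = 0.0811) and the M2 minus M1 difference of *Clec4a2* (lost without any 1 of 6 libraries, 0.0506 to 0.0808). Within *Prep*-/-, *Clec5a* lost its M1 against M0 call without replicate 3 of M1 (0.0578), *Clec4d* without replicate 2 of M0 (fold limit), and *Clec4a2* its M2 against M0 call without replicate 1 of M0 (0.0649) or of M2 (fold limit). The causes were not tested. With 3 libraries a group, differences within the intervals given above could not be resolved, and depth limits *Mgl2* most, at 4 to 19 counts per library in *Prep*+/- M1.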
